A study of Mus musculus with 20 samples.

Results

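The genes described here encode enzymes that attach ubiquitin to proteins or take it off again, and the measurements are of N6-methyladenosine (m6A) on their transcripts. Members were the peaks whose gene symbol in the authors' deposited tables starts with Ube2, Ube3 or Ube4, Rnf, Trim, Cul, Fbxo, Fbxl, Fbxw, Usp or Otud, where the short names (Rnf, Trim, Cul, Usp and Otud) are followed by a digit. In CD4 and CD8 double-positive (DP) thymocytes these were 302 of 13450 peaks, carrying 150 of 6618 gene symbols. In invariant natural killer T (iNKT) cells these were 253 of 12542 peaks, carrying 127 of 6774 gene symbols. Together the members came to 555 of 25992 peaks and 179 genes, of which 98 had a peak in both tables, 52 in DP cells alone and 29 in iNKT cells alone. No filter on low values was applied, so each member was kept. The rule reads letters only, and 2 symbols that it admits do not encode ubiquitin enzymes: Usp6nl encodes a GTPase-activating protein, and Fbxl12os is an antisense RNA gene.

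Cells came from the thymus of mice on the C57BL/6 background aged 6 to 8 weeks, either wild-type or with a floxed Mettl3 gene cut by a Cre recombinase under Cd4 control (Mettl3fl/flCD4-cre). The Mettl3 protein is the enzyme that writes m6A on messenger RNA, and Cre under Cd4 control is active in both cell types, because iNKT cells descend from CD4-expressing DP thymocytes. The iNKT cells were sorted as live cells that bound a CD1d tetramer and stained for the T cell receptor beta chain, and DP cells as live tetramer-negative cells with both coreceptors. There were 12 iNKT libraries, 3 for each genotype and library type (input RNA or m6A immunoprecipitate), and 8 DP libraries, 2 for each. The labels do not say which libraries came from separate mice, nor which cell type went through the low-input version of the m6A protocol that they name.

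Ubiquitin passes along a cascade. An E1 enzyme activates it, an E2 conjugating enzyme (Ube2 genes) carries it, and an E3 ligase brings the E2 to a chosen protein. Most E3 ligases have a RING domain (many Rnf and Trim proteins), others a HECT or U-box domain (Ube3 and Ube4), and the largest group is built on a cullin scaffold, which uses F-box proteins (Fbxo, Fbxl and Fbxw) and other adaptors to pick substrates. Deubiquitinases of the Usp and Otud families remove the mark. In thymocytes the pathway is known for setting thresholds of T cell receptor and NF-kappaB signalling and for the turnover of Notch1 and Myc.

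Each peak in the authors' deposited tables has a fold enrichment of immunoprecipitate over input, a log2 fold change of m6A between genotypes and a false discovery rate (FDR) for that change. A peak passed at an FDR of at most 0.05. Which genotype the sign refers to is not given. Negative values are read here as likely lower m6A in Mettl3-deleted cells, since the deletion removes an m6A writer and the authors' deposited gene lists hold no gene without a negative peak. "Lower" and "higher" below have this likely direction. The tables give 1 value per peak and none per library, so depth and the spread between replicates are unknown. The peaks are not replicates of a genotype. Of the marker genes that define the sorted cells, 5 of 6 iNKT markers had a peak in iNKT cells and 2 of 6 in DP cells, with Zbtb16 at 2 peaks and 0 peaks. Of 8 DP markers, 4 had a peak in DP cells and 3 in iNKT cells. Of 7 markers of other thymic cells, DP cells had a peak in 0 and iNKT cells in 2, and the part of such cells in the results was not tested. A peak needs both RNA and m6A, so a missing peak does not show that the gene is off.

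The start of the transcript is shown for the members whose passing peak covered all of the first 50 bases from the annotated start, because only these stretches of member peaks could be read here. They are bases 21 to 50 of the RefSeq start in GRCm38.p6, 5' to 3' on the transcribed strand. Capitals mark the letters GGAC, the variant GAAC, and the forms AGAC or AAAC of the short motif around which m6A is usually placed; they were searched on the transcribed strand and do not overlap in the stretches shown. In the authors' deposited tables the first 3 belong to lower peaks and the last to a higher peak.
Ube2k (chr5:65537265-65537294, plus strand): tggtgcgcatgcgcGGACccggcgccattt
Ube2n (chr10:95515182-95515211, plus strand): agaggccGAACtcgggatctgacaagatgg
Ube2m (chr7:13037929-13037958, minus strand): ccgagcacctccGAACacacccgaggtgct
Rnf167 (chr11:70647255-70647284, plus strand): gtggtggcaagcactctcgcgatactttga
In iNKT cells 14 member windows were covered in full by a peak of that gene, 7 of them held at least 1 of these motifs in bases 1 to 50, and the peak passed in 4. Motifs of this length are common: 50.8% of all 32851 RefSeq start windows held at least 1 in bases 1 to 50 and 33.8% in bases 21 to 50. A match is a description of the letters, and the methylated base itself was not mapped.

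The coordinates of most members lay in the gene they were named after. In DP cells 247 of 302 peaks (81.8%) lay inside the RefSeq span of the named gene on its strand, 8 lay there on the opposite strand and 47 lay elsewhere. In iNKT cells 195 of 253 peaks (77.1%) lay inside, 11 on the opposite strand and 47 elsewhere. Of the peaks elsewhere, 36 in DP cells and 41 in iNKT cells lay in another gene on the same strand. The peaks named Usp50 lay in Usp8, those named Fbxo47 in Plxdc1 and those named Trim34b in its neighbour Trim12c, for example. RefSeq gave no strand for 35 of the 179 genes, where either strand was accepted. Some stretches held much the same peak on both strands, such as the DP 3' UTR peaks of Usp34 (9.48-fold and 9.18-fold enrichment). At such stretches the strand of the signal, and so the placement, is uncertain. The 133 DP genes and 110 iNKT genes with a peak inside them are the ones described by name below, and the others are named with the gene in which they lie.

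m6A on these transcripts was lower at many sites in Mettl3-deleted iNKT cells and at few in DP cells, as it was over each whole table. Of the 253 iNKT members in the authors' deposited table, 48 (19.0%) were lower, beside 19.8% of all iNKT peaks, and 10 (3.95%) were higher, beside 5.84% of all peaks. Of the 302 DP members in the authors' deposited table, 4 (1.32%) were lower, beside 0.743% of all DP peaks, and 1 (0.331%) was higher, beside 0.483%. All of these shares are near their background. Counted by gene, 42 of 127 (33.1%) had a lower iNKT peak, beside 26.2% of all genes with an iNKT peak. The median log2 fold change of the members in the authors' deposited tables was -0.967 in iNKT cells, against -0.976 over all peaks, and -0.0108 in DP cells, against 0.0. In iNKT cells 69.2% of the member values were negative, and in DP cells 50.7%. The lower iNKT members had log2 fold changes from -8.44 to -1.46 (median -3.84), and each was at least 2-fold lower in the authors' deposited table. The 4 lower DP members ran from -2.57 to -0.484. At an FDR of 0.01 the DP table called 0 members in either direction. Among peaks inside the named gene, 41 were lower and 7 higher in iNKT cells, in 36 and 7 genes, and 3 were lower and 1 higher in DP cells.

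**Figure D1:**
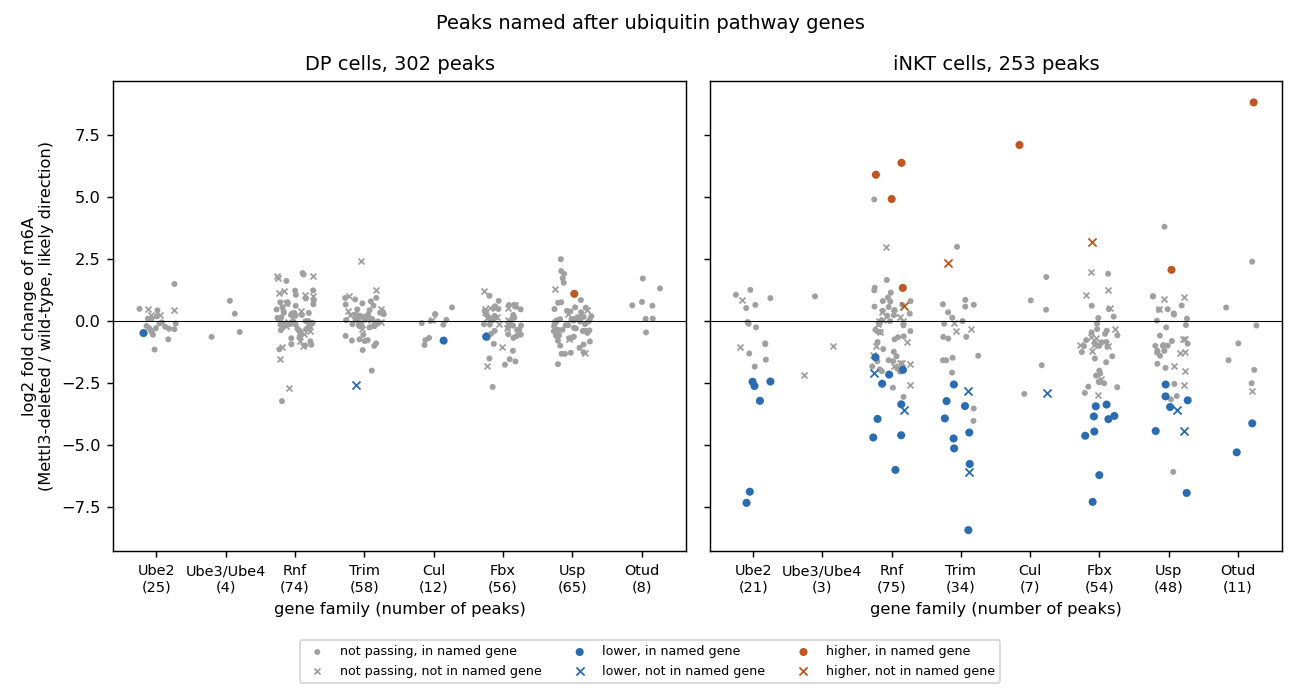
Log2 fold change of m6A (vertical axis) for each member peak, by gene family, in DP cells (left) and iNKT cells (right). Each point is 1 peak in the authors' deposited tables. Blue marks lower and orange higher peaks at an FDR of at most 0.05, and grey marks peaks that did not pass. Crosses mark peaks that lay outside the named gene or in it on the opposite strand. The iNKT values spread from -8.44 to 8.83, and the DP values from -3.23 to 2.5.

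The E2 enzymes were among the genes with lower iNKT peaks. Of 19 Ube2 peaks inside the named gene in the authors' deposited iNKT table, 6 (31.6%) were lower, in 6 of 13 genes, and 0 were higher. Over all iNKT peaks these shares were 19.8% and 5.84%, and 26.2% of all genes had a lower peak. Over all DP peaks 0.743% were lower and 0.483% higher. These shares are the background for each family below, and they were counted by name, wherever a peak lay. Counted in the same way, 28.6% of Ube2, 14.7% of Rnf, 32.4% of Trim, 16.7% of F-box and 16.7% of Usp peaks were lower in iNKT cells. The largest change was in Ube2h, an E2 that works with the multi-subunit GID/CTLH ligase, with a 3' UTR peak at -7.34 (FDR 3.98e-27) in the authors' deposited table. The other Ube2h peaks there stood at -1.84 in the 5' UTR (FDR 0.239) and at 0.524 further along the 3' UTR (FDR 0.76), and these did not pass. Ube2k, an E2 that builds the chains which send proteins to the proteasome, had a single iNKT peak, over the transcript start printed above (chr5:65537233-65537502), at -6.89 (FDR 1.26e-30) in the authors' deposited table. Ube2n, which builds the lysine-63-linked chains of NF-kappaB signalling, had a 5' UTR peak at -3.22 (FDR 0.0123) in the authors' deposited table. Ube2q1, a less studied E2, had a 3' UTR peak at -2.45 (FDR 5.25e-07) with an enrichment of 124-fold over input in the authors' deposited table. Its 3 other iNKT peaks ran from -0.9 to 0.927 and did not pass. Ube2r2, a close relative of the E2 of cullin ligases Cdc34, had a 3' UTR peak at -2.62 (FDR 1.62e-05) in the authors' deposited table.

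Ube2m was the single member with a passing peak in both tables. It encodes the E2 that attaches not ubiquitin but the related protein NEDD8 to cullins, which switches cullin ligases on. Its 5' UTR peak covered the start printed above and stood at -2.44 (FDR 0.00102, 11-fold enrichment, chr7:13037887-13038156) in iNKT cells in the authors' deposited table. In DP cells the peak at the same place (chr7:13037857-13038156) stood at -0.484 (FDR 0.0407, 2.48-fold enrichment) in the authors' deposited table. Both values were negative, and the DP value was less than 2-fold. The other 20 DP peaks inside Ube2 genes did not pass.

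Few peaks fell in the HECT and U-box ligases. Ube3a, the HECT ligase lost in Angelman syndrome, had 3 DP peaks with values from -0.443 to 0.817 and 1 iNKT peak inside the gene at 1.0 (FDR 0.76) in the authors' deposited tables. Ube4a had 1 DP peak at -0.637 (FDR 0.703) in the authors' deposited table. None of them passed.

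The Rnf ligases held peaks of both directions in iNKT cells. Of 55 peaks inside the named gene in the authors' deposited iNKT table, 9 (16.4%) were lower and 4 (7.27%) higher, in 7 and 4 of 28 genes, beside 19.8% and 5.84% of all peaks. The Rnf members had a median of -0.421 there, the closest to 0 of the large families, and 58.2% of their values were negative. In DP cells 0 of 56 Rnf peaks inside the named gene passed, beside 0.743% lower and 0.483% higher of all DP peaks. Rnf10, a RING ligase of ribosomal proteins, had a 3' UTR peak at -6.01 (FDR 3.39e-10) in iNKT cells in the authors' deposited table, while its 2 exonic peaks stood at -0.615 and 0.791 and did not pass. Rnf20, which with Rnf40 attaches ubiquitin to a core histone on transcribed genes, had a peak in exon 13 of 13 of 1 annotated transcript. That peak stood at -2.16 (FDR 5.01e-33) in the authors' deposited table. It does not mark the end of the gene, since DP peaks further along lay in exons 14 and 16 of 20 of another transcript. Rnf20 had 5 DP peaks, none passing, from -0.693 to 1.24. Rnf19b, a ligase described in the killing function of natural killer cells, had a 3' UTR peak at -3.95 (FDR 1.58e-25) in the authors' deposited table. Rnf146, which recognises poly(ADP-ribosyl)ated proteins, had a 3' UTR peak at -1.97 (FDR 0.00316). A peak on the opposite strand over the same stretch stood at -2.08 (FDR 0.00427) in the authors' deposited table, so its reads cannot be told apart by strand here.

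Rnf213, a giant ATPase and ligase linked to moyamoya disease, had the most peaks inside the gene, 9 in iNKT cells and 8 in DP cells, of which 7 in each table carried its name. Of the iNKT peaks 2 were lower in the authors' deposited table, 1 in exon 28 of 67 at -4.70 (FDR 0.000759) and 1 in the 3' UTR, named A930037H05Rik, at -5.75 (FDR 1.78e-08). The others ran from -1.83 to 1.35 and did not pass. Its DP peaks ran from -3.23 to 2.25, and none passed. Rnf145, a ligase of the endoplasmic reticulum that acts on cholesterol synthesis, had 3 iNKT peaks close to the end of the transcript, and all passed in the authors' deposited table. They stood at -3.36 (FDR 2.51e-15) in exon 11 of 11, at -1.46 (FDR 6.03e-07) at the start of the 3' UTR and at 1.34 (FDR 0.0324) further along it. The change thus turned from lower to higher along the last stretch of 1 transcript. In Rnf44, a RING ligase gene, 2 of 3 peaks were lower, at -4.61 (FDR 2.34e-06) and -2.53 (FDR 0.049), with a peak at 0.0377 between them in the authors' deposited table.

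The higher Rnf peaks were in Rnf220, Rnf24 and Rnf167 besides Rnf145. Rnf220, a ligase known from development of the nervous system, had a peak in exon 2 of 15 at 6.39 (FDR 0.00617) with an enrichment of 32.9 in the authors' deposited iNKT table. Rnf24, a membrane RING protein, had neighbouring 3' UTR peaks at 5.91 (FDR 0.0105) and 4.91 (FDR 0.0832) in the authors' deposited table, the second of which missed the threshold. Rnf167, a ligase of endosomes and lysosomes, had a peak over the transcript start printed above at 4.93 (FDR 0.000316) in the authors' deposited table. Rnf167 had no DP peak, and a peak that also carries the name Rnf167, at 0.592 in iNKT cells, lay in the neighbouring gene Pfn1.

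Among the Trim genes 9 of 28 iNKT peaks inside the named gene (32.1%) were lower, in 8 of 19 genes, and 0 were higher in the authors' deposited table, beside 19.8% and 5.84% of all peaks. None of 48 such DP peaks passed, beside 0.743% lower and 0.483% higher of all DP peaks. Trim44, an atypical member that lacks the RING domain, had the largest fall of all members. Its peak in exon 1 of 5 (chr2:102400097-102400515) stood at -8.44 (FDR 1e-216, 27.8-fold enrichment) in the authors' deposited iNKT table. The overlapping DP peak stood at -0.00629 (FDR 0.655) in the authors' deposited table. Trim26, a RING ligase described in interferon signalling, had a 3' UTR peak at -3.93 (FDR 5.01e-66) with an enrichment of 63.3 in the authors' deposited iNKT table. Trim41, a nuclear ligase, had a 5' UTR peak at -4.74 (FDR 3.98e-18) with an enrichment of 90.9 in the authors' deposited table. Trim8, a ligase of NF-kappaB and STAT signalling, had lower peaks at -4.50 (FDR 5.37e-08) in the 5' UTR and -2.56 (FDR 1.62e-06) in the 3' UTR in the authors' deposited table. A further 5' UTR peak, nearest the transcript start, stood at 0.678 (FDR 0.76).

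A cluster of neighbouring Trim genes on chromosome 7 encodes relatives of the antiviral protein Trim5. Of the 5 iNKT peaks inside it, 4 were lower in the authors' deposited table, beside 19.8% of all iNKT peaks. These were Trim5 at -5.77 (FDR 2e-12), Trim12a at -3.23 (FDR 0.0174), Trim30a at -5.14 (FDR 1.82e-09) and the peak named Trim34b. That peak lies in Trim12c and stood at -6.10 (FDR 1.58e-55). The peak that did not pass lay in Trim12a under another gene's name (Gm15133), at -0.541 (FDR 0.76). The 12 DP peaks in the cluster lay on either side of 0 and none passed, beside 0.743% lower and 0.483% higher of all DP peaks. These genes are near copies of each other, so reads may have been assigned to the wrong one, and which of them carried each change is uncertain.

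The cullins, the scaffolds of the largest ligase group, had few peaks. In DP cells 1 of 11 peaks inside the named gene was lower in the authors' deposited table, beside 0.743% of all DP peaks. It lay in Cul3, the scaffold that uses BTB-domain adaptors and that binds the iNKT lineage factor PLZF, in the class of 3' UTR peaks (chr1:80286990-80290188), at -0.787 (FDR 0.0339, 2.64-fold enrichment). The other Cul3 peaks stood at 0.00242 and 0.0491 in the authors' deposited table, and Cul3 had no iNKT peak. In iNKT cells 1 of 6 peaks was higher and 0 lower, beside 5.84% and 19.8% of all iNKT peaks. It lay in exon 16 of 42 of Cul9, an atypical cullin that binds p53 in the cytoplasm, at 7.11 (FDR 3.02e-06, 3.67-fold enrichment) in the authors' deposited table, while the 5' UTR peak of Cul9 stood at 0.459 (FDR 0.76). Cul1, the scaffold for the F-box proteins, had an iNKT peak at -2.94 that did not pass (FDR 0.296) in the authors' deposited table. A peak named Cul7 at -2.91 (FDR 0.00275) lay in Rrp36.

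The F-box genes had mostly negative values in iNKT cells. Of 40 peaks inside the named gene in the authors' deposited table, 35 (87.5%) had a negative value, beside 68.6% of all iNKT peaks, and 9 (22.5%) were lower, in 8 of 21 genes, and 0 higher, beside 19.8% and 5.84% of all peaks. The lower peaks were 2 of 15 in Fbxo genes, 3 of 12 in Fbxl genes and 4 of 13 in Fbxw genes. Counted by name wherever the peak lay, as the background is, 9 of 54 F-box peaks (16.7%) were lower, 1 higher and 81.5% negative. Fbxw4 had the largest change, a 5' UTR peak at -7.30 (FDR 5.01e-17, 41.5-fold enrichment) in the authors' deposited table. Fbxl5, the iron-sensing receptor that limits iron regulatory proteins, had a peak in exon 9 of 11 at -6.22 (FDR 2.29e-07) in the authors' deposited table. Fbxl14, a receptor for Snail-type factors, had a 3' UTR peak at -3.37 (FDR 3.8e-10). Fbxo11, which targets Bcl6, had a 3' UTR peak at -4.46 (FDR 5.25e-08) in the authors' deposited table. Fbxo46 had 5 iNKT peaks from -2.2 to -0.103, none of which passed.

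Fbxw7, the receptor that sends Myc, Notch1 and cyclin E to the proteasome, had 5 iNKT peaks in the authors' deposited table. The strongest, in the class of 5' UTR peaks, had a 153-fold enrichment and stood at -3.96 (FDR 7.94e-14), and a 3' UTR peak stood at -3.44 (FDR 0.011). The remaining 3 ran from -1.42 to -0.387 and did not pass. In DP cells the overlapping peaks stood at -0.392 and 0.148 (FDR 0.601 and 0.65) in the authors' deposited table. In DP cells 1 of 42 F-box peaks passed, beside 0.743% lower and 0.483% higher of all DP peaks. It lay in exon 13 of 22 of Fbxo38, a receptor described for the T cell checkpoint protein PD-1, at -0.632 (FDR 0.0275) in the authors' deposited table. The overlapping iNKT peak stood at -2.44 (FDR 0.301) and did not pass.

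Among the deubiquitinases of the Usp family 6 of 36 iNKT peaks inside the named gene (16.7%) were lower, beside 19.8% of all peaks, and 1 higher in the authors' deposited table. Usp10, which removes ubiquitin from p53 and binds the stress granule protein G3bp1, had the most enriched peak of all 253 iNKT members. It spanned 601 nt of exon 4 of 14 (chr8:119941439-119942039), was 268-fold enriched and stood at -6.94 (FDR 6.61e-07) in the authors' deposited table. The overlapping DP peak stood at 1.73 (FDR 0.0794) and did not pass. Usp34, a very large enzyme of the Wnt pathway, had a peak in exon 15 of 80 at -4.44 (FDR 7.94e-23) in the authors' deposited iNKT table. Usp8, an endosomal deubiquitinase needed for thymocyte maturation, had a peak at -3.47 (FDR 0.00832), and the peak named Usp50 that lies in Usp8 stood at -4.45 (FDR 1.66e-05) in the authors' deposited table. Usp38 and Usp48 had lower peaks at -3.20 (FDR 0.000468) and -2.56 (FDR 0.0363). Usp15, a regulator of T cell activation, had a 120-fold enriched peak at -6.09 that did not pass (FDR 0.167) in the authors' deposited table.

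Usp36, a nucleolar deubiquitinase, had passing iNKT peaks of both directions. A peak in exon 14 of 21 stood at 2.07 (FDR 0.00251) and one in exon 16 of 21 at -3.04 (FDR 1.32e-06) in the authors' deposited table. The overlapping DP peaks stood at 1.55 and -0.273 (FDR 0.279 and 0.521), with the same signs. Of 57 DP peaks in Usp genes 1 passed, beside 0.743% lower and 0.483% higher of all DP peaks. That peak was in Usp42, an enzyme of p53 regulation. It covered 1501 nt of exon 15 of 18 (chr5:143713828-143716092) and was higher by 1.10 (FDR 0.0186) in the authors' deposited table. The iNKT peaks under it stood at -1.40 and -3.03 (FDR 0.299 and 0.187) and did not pass. DP members that came next, with FDR from 0.0617 to 0.0794, were in Rnf111, Usp35, Usp48 and Usp10, with values of 0.758, 1.91, 2.02 and 1.73, and a second Usp48 peak at -0.676 in the authors' deposited table. Among iNKT members the nearest to the threshold was a 3' UTR peak in Trim25, a ligase of innate RNA sensing, at -4.03 (FDR 0.0501).

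The small Otud family of deubiquitinases held the highest value of all members. Otud1, an immune deubiquitinase whose transcript has a single coding exon, had a 209 nt iNKT peak at 8.83 (FDR 2.51e-23, 6.05-fold enrichment) in the authors' deposited table. A second Otud1 peak in the same exon, further downstream, stood at -1.97 (FDR 0.524). The DP peak of Otud1 overlapped that second site and stood at 0.636 (FDR 0.4) in the authors' deposited table. Otud7b, which acts on the T cell receptor kinase Zap70 and on non-canonical NF-kappaB signalling, was lower at -5.30 (FDR 2.95e-08) in exon 12 of 12 and at -4.13 (FDR 0.0427) in the 3' UTR. A peak between them stood at 0.547 (FDR 0.76) in the authors' deposited table. In DP cells 7 of 8 Otud peaks had a positive value (median 0.627), and 0 passed. Over all DP peaks 49.7% of values were negative, 0.743% of peaks were lower and 0.483% higher.

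**Figure D2:**
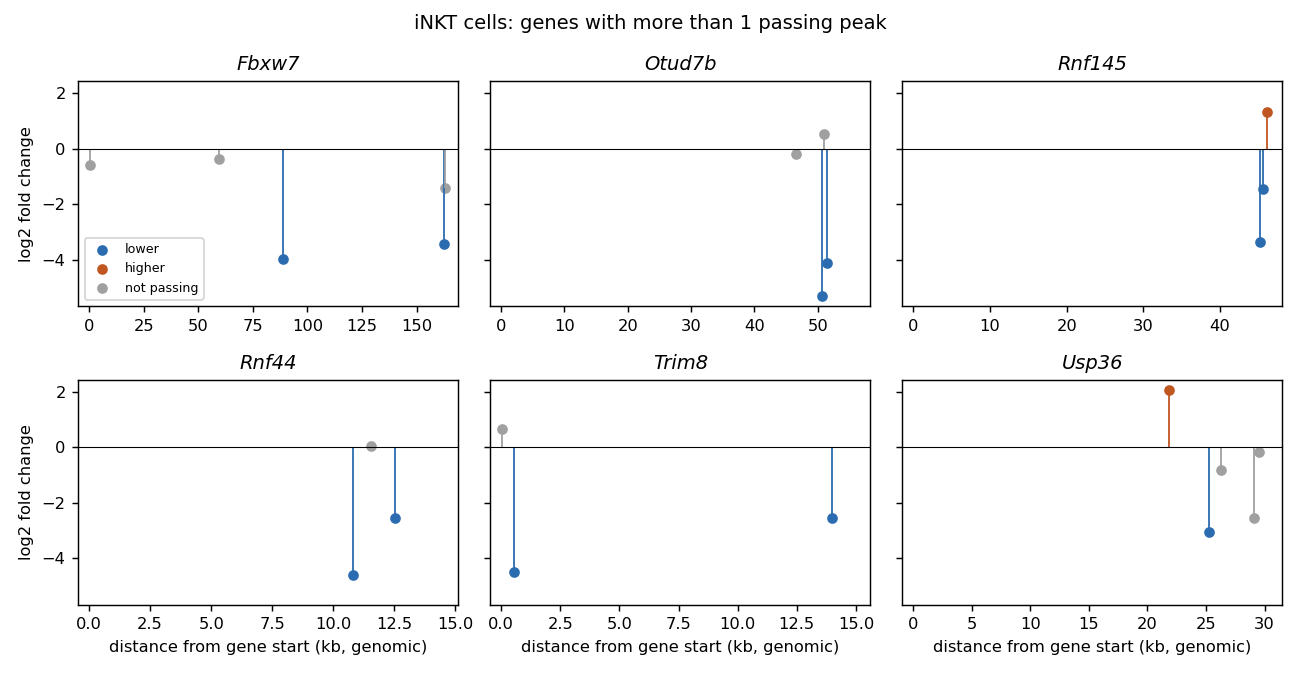
Log2 fold change (vertical axis) against genomic distance from the gene start in kb (horizontal axis) for the iNKT peaks inside each gene with more than 1 passing peak. Each stem is 1 peak that carries the gene's name in the authors' deposited table. Fbxw7, Otud7b, Rnf44 and Trim8 show 2 lower peaks each with grey peaks that did not pass beside them, and Rnf145 and Usp36 show peaks on both sides of 0.

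In iNKT cells 49 of 110 genes had at least 2 peaks of their own name inside them in the authors' deposited table. In 20 of these 1 peak passed beside others that did not, in 6 more than 1 passed, and in 23 none did. Of 71 such DP genes, 2 had 1 passing peak and 69 had none. Over all peaks 19.8% were lower and 5.84% higher in iNKT cells, and 0.743% and 0.483% in DP cells. The same counts over all genes with several peaks were not made, so whether these patterns are particular to the members is unknown. The log2 fold change comes from immunoprecipitate and input together, per the file headers of the authors' deposited tables, and how RNA levels enter it was not tested.

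**Figure D3:**
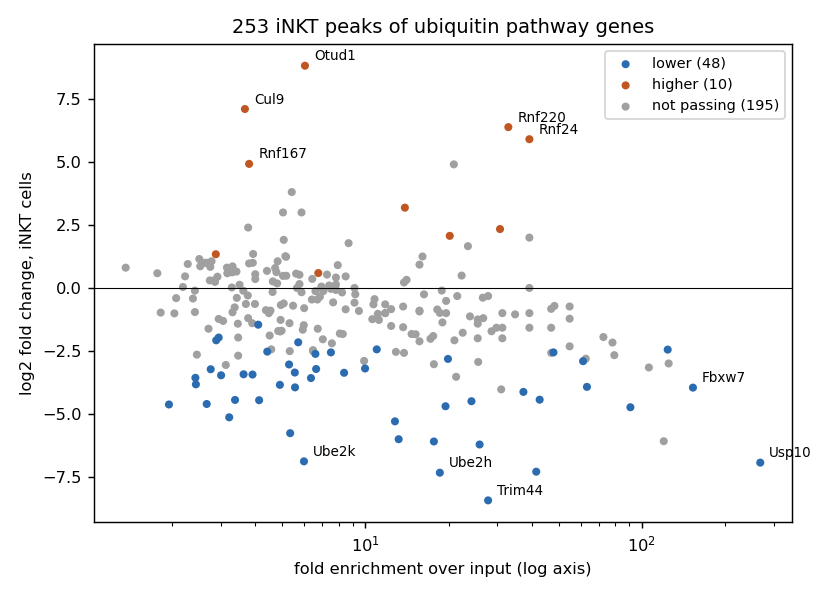
Log2 fold change (vertical axis) against fold enrichment over input (horizontal, log axis) for the 253 iNKT members in the authors' deposited table, with lower peaks in blue, higher in orange and others in grey. Lower peaks occur over the whole range, from 1.95-fold (Fbxo28) to 268-fold (Usp10), and the labelled Otud1, Cul9 and Rnf167 peaks have enrichments of 6.05, 3.67 and 3.8.

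Passing members were found among weakly and strongly enriched peaks. The lower iNKT members had a median enrichment of 6.62, close to the 6.85 of members that did not pass, whereas lower peaks over the whole authors' deposited table had a median of 10.9. The 10 higher members had a median of 10.3 beside 5.04 for all higher peaks. Over all iNKT members the median was 6.76, beside 8.32 for all iNKT peaks. In DP cells it was 5.08, beside 4.7 in the authors' deposited table.

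Members that lay at the same place in both cell types were set side by side. The tables were made separately, so levels were not compared between them. Peaks sharing at least 1 exonic base on the same strand made 118 pairs, with 98 DP members (32.5%) and 107 iNKT members (42.3%), beside 36.4% and 42.7% of all peaks. Of the lower iNKT members 42 of 48 (87.5%) overlapped a DP peak, beside 82.6% of all lower iNKT peaks. Of the higher ones 1 of 10 did (10%), beside 19.2% of all, and of those that did not pass 32.8%, beside 33.9%. In the 43 pairs with a lower iNKT peak, the iNKT median was -3.85 and the DP median 0.0875 in the authors' deposited tables. The DP values of these pairs ran from -0.666 to 2.02, 19 of the 43 were negative and only that of Ube2m passed. Most sites that were lower in iNKT cells thus held a DP peak too, with DP values on both sides of 0. The difference between the cell types was not tested, and the cell type cannot be told apart from the number of libraries and possibly the protocol.

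**Figure D4:**
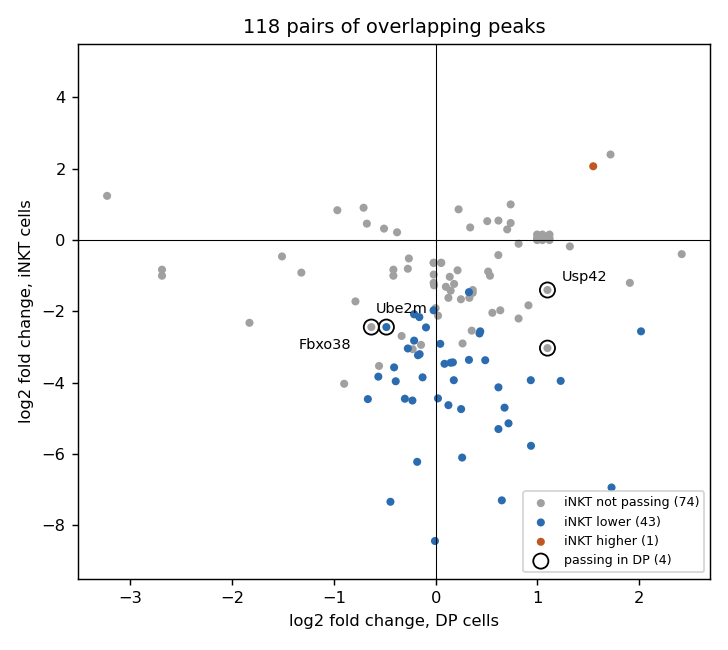
Log2 fold change in iNKT cells (vertical axis) against that in DP cells (horizontal axis) for the 118 pairs of overlapping member peaks in the authors' deposited tables. Blue and orange mark pairs whose iNKT peak was lower (43) or higher (1), grey those that did not pass, and black rings the 4 pairs whose DP peak passed; the blue points spread over -0.666 to 2.02 on the DP axis.

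By the position class of the authors' annotation, member peaks lay in the transcript much as all peaks did. In iNKT cells 46 members (18.2%) were in the 5' UTR class, 89 (35.2%) in the exon class and 118 (46.6%) in the 3' UTR class, beside 14.7%, 39.8% and 45.2% of all peaks in the authors' deposited table. In DP cells the shares were 9.27%, 47.4% and 43.4%, beside 8.39%, 45.9% and 45.5%. Of the 48 lower iNKT members 25 (52.1%), among them Ube2h, Trim26, Rnf19b and Rnf10, were in the 3' UTR class, beside 50.6% of all lower iNKT peaks. The 7 (14.6%) in the 5' UTR class, beside 10.2% of all lower iNKT peaks, were in Fbxw4, Ube2k, Trim41, Trim8, Fbxw7, Ube2n and Ube2m. The class follows the authors' annotation: the Trim44 peak was classed as exon in iNKT cells and its overlapping DP peak as 5' UTR.

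**Figure D5:**
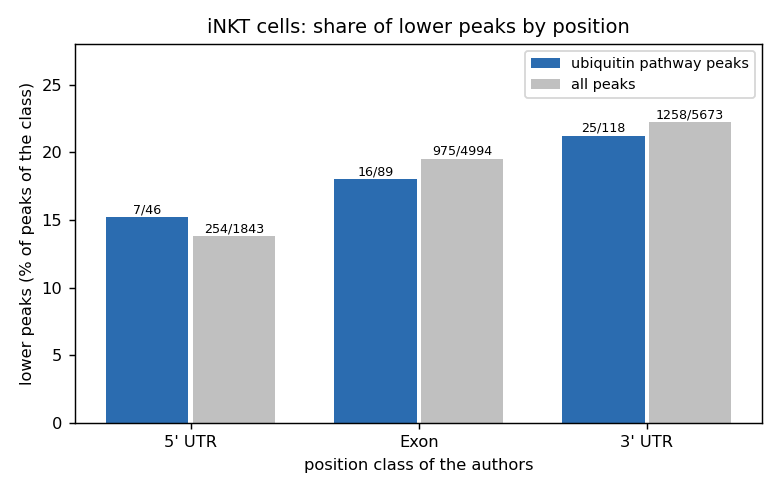
Share of iNKT peaks that were lower (vertical axis, % of the peaks of each class) by position class (horizontal axis), for the ubiquitin pathway members (blue) and all iNKT peaks (grey) of the authors' deposited table, with counts above the bars. The members' shares are 15.2%, 18% and 21.2%, next to 13.8%, 19.5% and 22.2% of all peaks.

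A list of 43 member genes with known parts in T cell or iNKT cell biology was followed whatever its values. In DP cells 34 had a peak inside the gene under any name. Of these 1, Cul3, had a lower one in the authors' deposited table, beside 95 of 6618 genes with a DP peak, counted by name. In iNKT cells 25 had a peak and 10 a lower one: Fbxw7, Usp8, Usp10, Rnf20, Trim24, Ube2n and Otud7b, and, by peaks that carry another gene's name, Fbxw11, Ube2o and Otud5. By peaks of their own name inside the gene, 20 had an iNKT peak and 7 a lower one. Over all genes, also counted by name, 26.2% of those with an iNKT peak had a lower one. Trim24, a chromatin reader, had its lower peak at -3.43 (FDR 0.0126) in the 3' UTR and a peak at 3.0 over the transcript start that did not pass (FDR 0.638). Under any name, no gene of the list had a higher peak inside it, and 7 had a peak in neither table. Trim33, a regulator of TGF-beta signalling, had 6 DP peaks from -1.17 to 0.796 and 1 iNKT peak at 0.0 in the authors' deposited tables. Usp7, which stabilises the p53 ligase Mdm2, had 5 DP peaks from -0.477 to 0.152, and Usp22, a histone deubiquitinase needed for iNKT cell development, had 1 at -0.359 (FDR 0.408). Neither had an iNKT peak inside the gene. Trim27, a RING ligase, had a 5' UTR iNKT peak at -3.53 (FDR 0.102) that did not pass. Otud5, a deubiquitinase of innate signalling, had a 5' UTR peak at -2.51 (FDR 0.0912) and a lower 3' UTR peak, named Pim2, at -3.16 (FDR 1.26e-11) in the authors' deposited table.

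Other genes of the pathway, whose names the rule does not match, were taken from a list of 98 that included E1 enzymes, HECT and other ligases, adaptors and further deubiquitinases. In iNKT cells 52 of them had a peak of their name inside the gene, and 20 (38.5%) had a lower peak, beside 26.2% of all genes, and 4 a higher one. Of the 94 peaks 27 (28.7%) were lower and 5 (5.32%) higher in the authors' deposited table, beside 19.8% and 5.84% of all peaks. The median was -0.762. In DP cells 61 had a peak, 0 had a lower and 1 a higher one. Of their 116 peaks 0 were lower and 1 (0.862%) higher, beside 0.743% and 0.483% of all DP peaks. The higher peak was in Huwe1, a giant HECT ligase, at 0.652 (FDR 0.0269) in the authors' deposited table. The iNKT peak within the span of that DP peak stood at -4.20 (FDR 9.33e-10). Elsewhere in Huwe1 an iNKT peak stood at -3.97 (FDR 1.26e-18), and iNKT peaks at -1.13 and -0.291 did not pass. Lower iNKT peaks lay in Ubr2, a ligase of the N-degron pathway, at -8.05 (FDR 2.51e-36), in Keap1, the Cul3 adaptor that holds Nrf2, at -5.44 (FDR 1.26e-17), and in Ubash3a, a brake on T cell receptor signalling, at -3.56 (FDR 0.000355). Tnfaip3, the NF-kappaB inhibitor A20, was lower at 3 of its sites in the authors' deposited table. These stood at -4.25 in a 171-fold enriched exonic peak, at -2.81 (FDR 5.01e-78) and at -1.02 (FDR 7.94e-23). Its peaks at -0.786 and 0.532 did not pass (FDR 0.2 and 0.242). Dtx1 and Cbl, ligases known in Notch and T cell receptor signalling, had iNKT peaks of both directions, Dtx1 at -4.32 and 8.46 and Cbl at -3.87 and 4.51 in the authors' deposited table.

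Some peaks inside members' genes carried another gene's name and were missed by the rule. There were 66 in DP cells, of which 0 passed, beside 0.743% lower and 0.483% higher of all DP peaks. In iNKT cells there were 63, of which 13 were lower and 2 higher in the authors' deposited table, beside 19.8% and 5.84% of all peaks. The lower ones included a 299-fold enriched peak in Ube2o, a large hybrid E2 and E3 enzyme, at -6.39 (named Sphk1), a peak in Usp47 at -5.24 (named Dkk3) and one in Fbxw11 at -4.83 (named Smim23) in the authors' deposited table. Both higher ones were large, with a peak in Fbxo42 at 10.5 (named Cplane2) and one in Rnf14 at 8.01 (named Gnpda1). Conversely, passing members that lay in other genes included the peak named Fbxo40, at 3.19 in Hcls1, and that named Trim37, a DP peak at -2.57 (FDR 0.0427) in the span of Ska2 on its opposite strand. RefSeq spans can miss longer transcripts of the named gene, so a peak counted as lying elsewhere may still belong to it.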

How the data were processed

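The authors deposited 1 peak table per cell type. Per the submitters' processing notes, software included STAR 2.6.0a, HOMER 4.9.1, RSEM 1.3.0, Trim Galore 0.6.5 and FastQC 0.11.5, with mm10 as the build. Whether replicates were pooled, and the version of the peak caller, is not given in the sources used here. Per the file headers, the authors' tables hold a p-value per peak, a fold enrichment as a linear ratio, a log2 fold change between genotypes and log10 p-values and FDR, which were treated as scores. The authors' list of genes per cell type, per the file headers, is of other content (names). Of repeated entries, 5 in the DP table and 24 in the iNKT table, none a member, 1 copy was kept.

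The members and all lists were chosen with earlier results of these data known. Peaks were placed by the gene spans of RefSeq GRCm38.p6, which is the mm10 build, and start sequences come from the same RefSeq build (144 of 179 member genes matched). The choice of the windows shown was made after seeing the data. Peaks were counted by the authors' FDR and sign beside all peaks, with no test added. Named genes were those with a passing DP peak, and per family and direction in iNKT cells the 3 passing peaks with the smallest FDR and the 2 with the largest change. Genes with passing peaks of both signs or in both tables, the 3 genes with most peaks per table and the list of 43 T cell genes were added, and other names were chosen after their values were seen. Placement, matching and counting were tested on simulated data. Scripts ran in Python 3.11.15 with pandas 2.3.3, numpy 2.4.6 and matplotlib 3.10.9. Single values of some genes are not reported here.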

Additional observations from a re-analysis of the deposited data

How the results depend on the processing

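Counts and medians of the members were recomputed with an FDR of 0.01 or 0.1, with changes of at least 2-fold, with a fold enrichment of at least 2, within the named gene, by gene, with repeated entries kept, with a stricter overlap for matched peaks, with the sign turned, and with members taken by coordinates (added after seeing the data). Of these values 40 lay within 1.5 times the count given, or within the 95% interval of the median over peaks. Another 4 moved further and 6 reversed. The 40 kept their direction except the DP median, which went from -0.0108 to 0.0233 with a fold enrichment of at least 2. That value lay inside the interval of -0.104 to 0.0646. The lower DP count of 4 became 0 at an FDR of 0.01 and 1 at 2-fold, and the higher DP count of 1 became 0 at 0.01 and 5 at 0.1, because the thresholds differ. With the sign turned, the counts change places (DP 1 lower and 4 higher; iNKT 10 lower and 48 higher) and the medians become 0.0108 and 0.967, by construction. Of the 52 single passing peaks inside the named gene, 39 passed at 0.01 and 49 were at least 2-fold. No paired analysis was possible because the tables hold no values per replicate, and leaving out a replicate was not run for the same reason. Depth is unknown.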
